A study of Mus musculus with 12 samples.

Results

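The interferon-stimulated genes Irf1, Irf7, Isg15, Ifit1, Ifit3, Usp18, Rsad2, Gbp2 and Oas1a, were followed in mouse liver RNA after chemical fibrosis, after recovery and after exosome treatment. They were chosen by name, as entries of the deposited expression table, and make up 9 of its 21936 genes. All 9 were counted deeply enough to be tested in each comparison. The livers came from male C57BL/6 mice (substrain J by the study's methods), 6 weeks old on arrival, and every mouse had received carbon tetrachloride (CCl4), a toxin that injures hepatocytes and leaves scar tissue, at 1 mL/kg into the peritoneum 2 times per week for 8 weeks. The liver fibrosis group (LFG) was sacrificed then. The regression group (REG) went on to receive 200 µL of PBS, and the hADMSCs-Exo group 250 µg of exosomes of human adipose mesenchymal stem cells in 200 µL of PBS, both through the tail vein, 2 times per week and for 4 weeks. Each group had 3 libraries. REG and hADMSCs-Exo livers were thus taken later after the last toxin dose than LFG livers, and time and recovery cannot be told apart. Another 3 samples, treated with the cells themselves (hADMSCs), were not used here. The labels do not say that each library was a separate mouse, so the p-values measure the spread between these libraries only. No undamaged liver was analysed here.

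Interferons are cytokines that warn cells of infection or damage. Type I interferons signal through IFNAR1 and IFNAR2 to a complex with the DNA-binding subunit IRF9 that binds the interferon-stimulated response element (ISRE), whereas interferon-γ signals through its own receptor to the gamma-activated site (GAS). Hepatocytes, Kupffer cells and other liver cells all respond, and in whole liver RNA fewer cells of a type and less RNA per cell cannot be told apart. Among the members, Irf1 and Irf7 encode transcription factors: IRF1 drives antigen presentation and guanylate-binding protein genes, and IRF7 amplifies type I interferon production. Isg15 encodes a ubiquitin-like modifier, and Usp18 the enzyme that removes it and damps signaling at the type I receptor. The effectors include Ifit1, which binds foreign RNA, its partner Ifit3, and Rsad2 (viperin), which makes an antiviral nucleotide. Oas1a makes the oligoadenylates that switch on RNase L, and Gbp2 is a GTPase that attacks the vacuoles of intracellular microbes.

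The genes are spread over 8 mouse chromosomes in the table (GRCm38). Irf1 (ENSMUSG00000018899) lies on chromosome 11 from 53770014 to 53778374, and Irf7 (ENSMUSG00000025498) on chromosome 7 from 141262706 to 141266481. Ifit3 (ENSMUSG00000074896, 34583531 to 34588731) and Ifit1 (ENSMUSG00000034459, 34640871 to 34650009) share a stretch of chromosome 19. Gbp2, Oas1a and Ifit3 have near copies (Gbp2b, Oas1g and Ifit3b) among which reads could have been split, and neither the treatment of such reads nor the use of strand is given in the sources used here.

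The DNA before the start sites was searched for both elements, because they tell the members apart in a way that the choice of genes did not use. RefSeq windows of GRCm38.p6 were matched for 8 of the 9 members, and none for Usp18. The ISRE core was searched as GAAANNGAAA and the GAS as TTCNNNGAA, on both strands of the 250 bases before the start, with overlapping matches counted. At least 1 ISRE core stood in 6 members and in 2.98% of all 32851 promoters, and at least 2 stood in 4 members (Isg15, Ifit1, Ifit3 and Oas1a) and in 0.180% of all promoters. Neighbouring matches among the 3 of Isg15 overlapped, as did the 2 of Oas1a. A GAS stood in Irf1 and Oas1a and in 7.02% of all promoters. Irf1, which has 2 RefSeq windows, had the GAS in the first and no ISRE core in either, Gbp2 had 1 ISRE core, 59 to 50 bases before the RefSeq start, and Irf7 matched neither motif in this window. Stretches around the matches are shown for 5 members with ISRE cores and for Irf1, 5′ to 3′ along the gene's strand, with matches in capitals. An ISRE core on the opposite strand reads TTTCNNTTTC here, and in Oas1a the first block in capitals is the GAS.
Isg15, chr4:156200841-156200930 (minus strand): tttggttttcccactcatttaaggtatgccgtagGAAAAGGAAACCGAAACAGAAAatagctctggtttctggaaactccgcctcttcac
Ifit1, chr19:34640754-34640843 (plus strand): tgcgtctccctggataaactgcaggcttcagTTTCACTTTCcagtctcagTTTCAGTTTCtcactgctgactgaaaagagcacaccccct
Ifit3, chr19:34583350-34583439 (plus strand): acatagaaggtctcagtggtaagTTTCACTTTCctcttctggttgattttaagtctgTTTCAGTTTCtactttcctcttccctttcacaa
Rsad2, chr12:26456523-26456612 (minus strand): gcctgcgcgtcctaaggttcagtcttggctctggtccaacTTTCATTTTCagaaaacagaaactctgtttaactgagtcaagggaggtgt
Oas1a, chr5:120907526-120907629 (minus strand): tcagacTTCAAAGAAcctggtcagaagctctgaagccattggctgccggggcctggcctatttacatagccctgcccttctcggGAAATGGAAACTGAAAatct
Irf1, chr11:53769883-53769972 (plus strand): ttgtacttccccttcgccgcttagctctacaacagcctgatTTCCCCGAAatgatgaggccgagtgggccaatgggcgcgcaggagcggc

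The levels of the genes were compared on FPKM, counts per length and library total. Averaged over the 9 libraries, the transcription factor Irf7 had 52.0 FPKM and the modifier Isg15 48.9. They were followed by Ifit3 with 35.4, Ifit1 with 16.8, Usp18 with 13.6, Oas1a with 13.0, Irf1 with 8.76, Gbp2 with 8.09 and Rsad2 with 4.26. Single libraries ran from 16.6 to 102 for Irf7, from 20.7 to 105 for Isg15 and from 0.717 to 13.1 for Rsad2, and the ranges of all neighbours in this order overlapped.

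For most members the libraries of a group lay further apart than the group means. In the following, levels of 1 gene between libraries are log2 CPM, counts scaled to the size of each library by TMM (trimmed mean of M values), on which a difference of 1 is 2-fold. Irf7 had 8.01, 7.76 and 6.28 in LFG libraries 1, 2 and 3, then 8.19, 6.87 and 6.81 in REG and 8.55, 6.85 and 6.95 in hADMSCs-Exo. Isg15 had 5.75, 4.48 and 4.55 in LFG, 5.65, 4.72 and 4.45 in REG, and 5.93, 3.87 and 4.53 in hADMSCs-Exo. Library 1 was the highest of its group in all 3 groups for both genes, and the groups overlapped.

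Ifit1 and Ifit3 ranged widely. Ifit1 had 5.77, 5.0 and 3.54 in LFG, 5.90, 4.72 and 4.48 in REG, and 7.03, 4.41 and 4.67 in hADMSCs-Exo. Ifit3 had 6.18, 5.57 and 3.64 in LFG, 6.84, 5.50 and 5.06 in REG, and 7.17, 5.05 and 5.01 in hADMSCs-Exo. Between the highest and the lowest library the level differed 11.2-fold for Ifit1 and 11.6-fold for Ifit3, with hADMSCs-Exo 1 at the top and LFG 3 at the bottom of both.

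The brake and the other antiviral enzymes also had library 1 at the top of each group. The highest of all libraries was hADMSCs-Exo 1 for Usp18 and LFG 1 for Rsad2 and Oas1a. Usp18 had 5.67, 5.34 and 4.62 in LFG, 5.44, 4.70 and 4.81 in REG, and 6.19, 4.16 and 4.56 in hADMSCs-Exo. Rsad2 had 5.37, 4.35 and 1.99 in LFG, 4.15, 2.54 and 2.56 in REG, and 4.96, 3.92 and 3.35 in hADMSCs-Exo. Library 1 again led each group, and the lowest Rsad2 level, 43 reads, was that of LFG 3. Oas1a had 5.47, 4.99 and 2.17 in LFG, 4.73, 3.90 and 3.97 in REG, and 5.23, 3.88 and 3.89 in hADMSCs-Exo, again with a single low library, LFG 3.

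Irf1 and Gbp2 were the members in which library 1 did not lead every group. Gbp2 had 4.19, 4.29 and 1.39 in LFG, 5.25, 4.17 and 3.68 in REG, and 4.34, 4.97 and 4.24 in hADMSCs-Exo, so that LFG 3, with 28 reads, lay far below the other 8 libraries. Irf1 had 4.67, 4.30 and 4.65 in LFG, 5.67, 5.60 and 4.87 in REG, and 5.27, 5.57 and 4.94 in hADMSCs-Exo. It was the member with the smallest range, 2.59-fold over the 9 libraries, and on this scale all 3 LFG libraries lay below all 6 others.

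**Figure D1:**
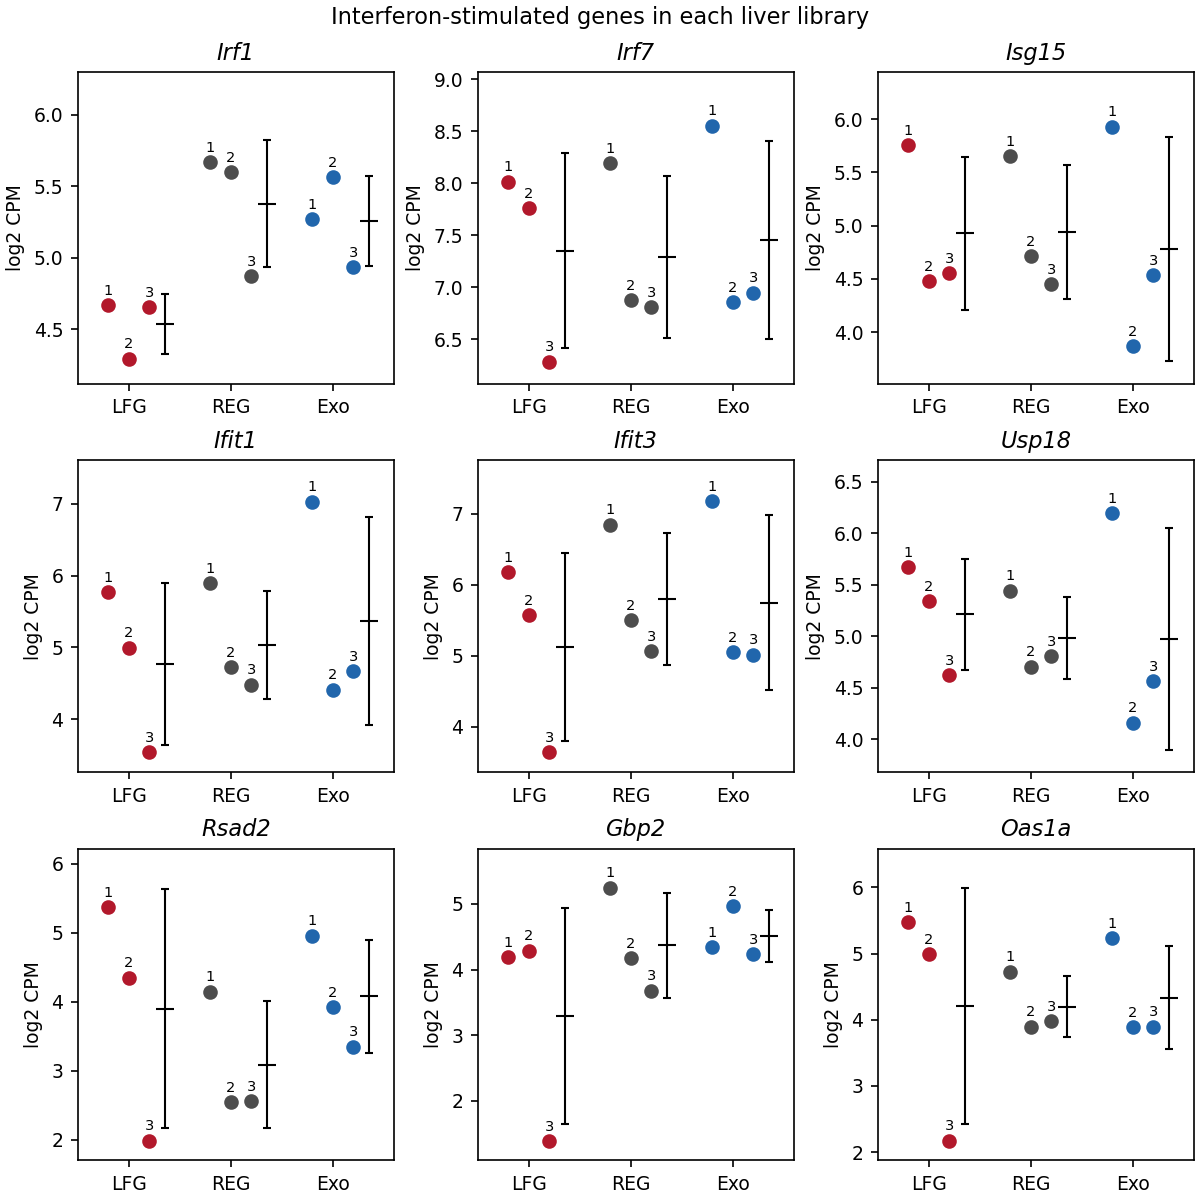
Log2 CPM of each gene (y axis, own range per panel) in the 3 libraries of LFG, REG and hADMSCs-Exo (Exo), numbered by replicate, with the group mean and SD (n = 3) as a bar beside the points. Library 1 is the highest point of every group for 7 genes, while for Irf1 the LFG points lie below those of REG and Exo.

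Taken as a pattern over libraries, 7 of the 9 members (Irf7, Isg15, Ifit1, Ifit3, Usp18, Rsad2 and Oas1a) had library 1 as the highest in each of the 3 groups, where 6.93% of the 12760 genes tested over the 9 libraries did. Of all genes, 2.65% had library 2 and 4.86% library 3 as the highest in each group, and 0 members did. On FPKM the count was again 7 members, against 14.6% of all genes. LFG 3 was the lowest of the 9 libraries for 6 members and for 25.5% of all genes. These 7 genes were put together after their values had been seen, so their mean is a description. Each gene's log2 CPM minus its own mean, averaged over the 7, was 0.91, 0.23 and -1.29 in LFG, 0.72, -0.41 and -0.53 in REG, and 1.32, -0.53 and -0.41 in hADMSCs-Exo. The highest libraries of the 3 groups were thus nearer to each other than to the other libraries of their own group. Choosing the 7 for a high library 1 in each group favours this. The replicate numbers come from the labels, which do not say whether they mark a shared batch or day.

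Irf1 stood apart in its variance as well. Differences between the group means made up 0.43% of the variance of Oas1a over the 9 libraries, 0.81% of that of Irf7, 1.19% of that of Isg15 and 3.27% of that of Usp18. Over the 9 members the median was 6.45%, where the median of all genes tested was 25.1%. With 3 libraries per group the means also differ through the spread of libraries alone, so such a share is no measure of a group effect. The median SD within groups was 1.08 log2 units for the members and 0.38 for all genes. For Irf1 the group means made up 64.7% of the variance and the SD within groups was 0.34, below the median of all genes.

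Pearson's r between the 21 pairs of those 7 genes ran from 0.60 to 0.97 (median 0.85) over 9 libraries, and Spearman's rho from 0.43 to 0.97 (median 0.80). With the group means taken off, r ran from 0.63 to 0.99, and without LFG 3 from 0.62 to 0.96. Irf1 had an r of -0.14 to 0.36 with the 7. Gbp2 had 0.20 to 0.73 with them, which became -0.02 to 0.37 without LFG 3. Grouping the 7 by their high library 1 by itself favours a high r among them and a lower r with Irf1 and Gbp2. The genes share libraries, depth and scaling, so these values describe the 9 libraries and carry no p.

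The genes most like the members were ranked by r with the mean of the 9 centred members, among 10833 genes. The first 10 were Ifit3b (r = 0.98), Slfn1 (0.97), Ifi27l2a (0.97), Rdh9 (0.96), Ifi44 (0.96), Parp14 (0.95), Gtdc1 (0.95), Slfn8 (0.95), Dmpk (0.95) and Slc16a5 (0.95). Of these, 5 (Ifit3b, Ifi27l2a, Ifi44, Parp14 and Slfn8) stand in the list of 40 other genes induced by type I interferon. Slfn1, Gtdc1, Rdh9 (a retinol dehydrogenase gene), Dmpk (a kinase gene) and Slc16a5 (a transporter gene) are in no interferon list used here. Without LFG 3 the r of the 10 genes ran from 0.90 for Slc16a5 to 0.99 for Ifit3b.

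**Figure D2:**
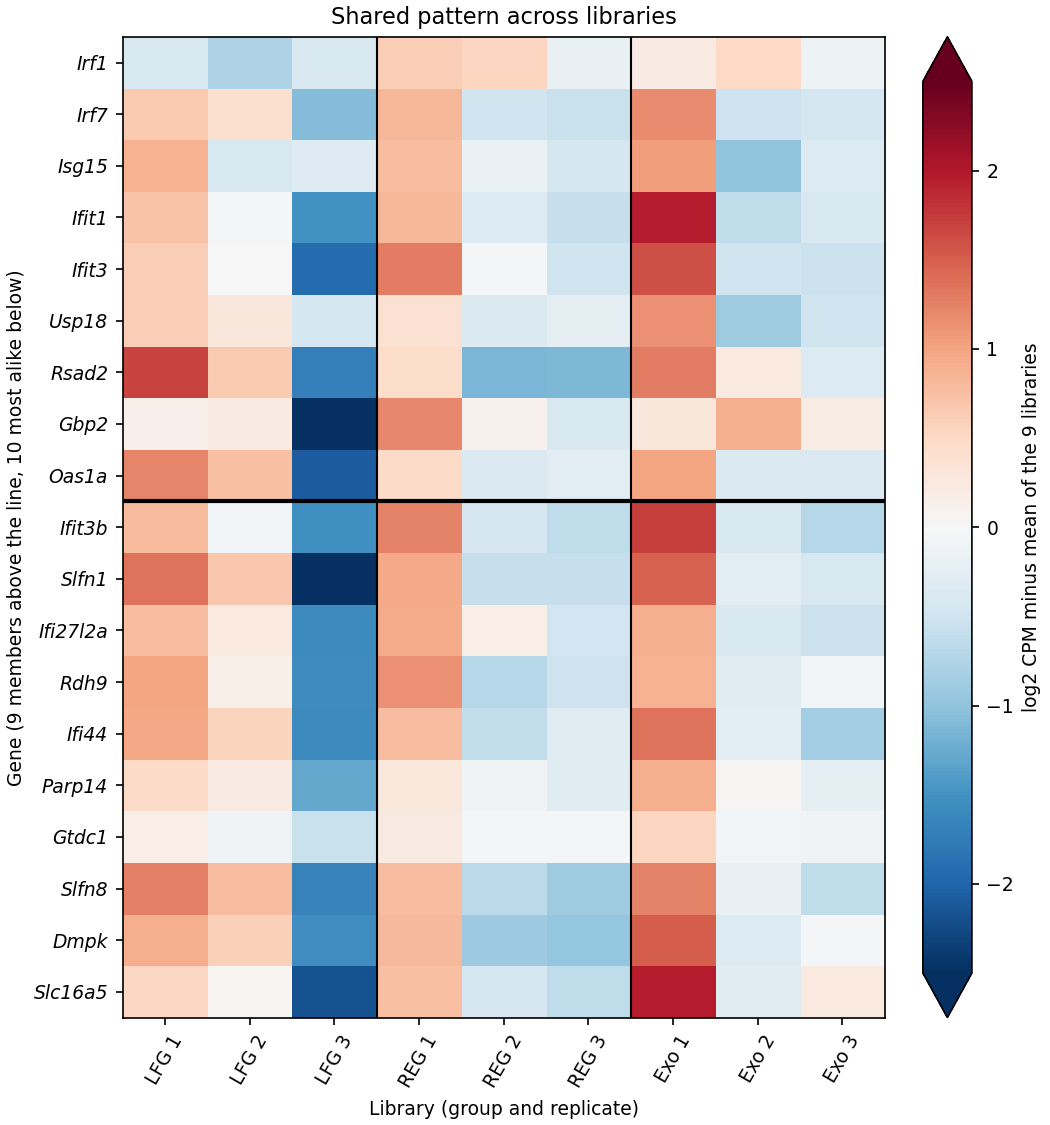
Log2 CPM minus each gene's mean over the 9 libraries (colour, clipped at the ends of the scale) for the 9 members above the line and the 10 most alike genes below it, with libraries in columns by group. The first library of each group is the reddest of its 3 columns in every row but those of Irf1 and Gbp2, and LFG 3 is the bluest column in most rows.

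Cell type markers were read beside this pattern. Summed CPM of 10 Kupffer cell and macrophage markers was 1537, 1262 and 171 in LFG, 1494, 780 and 527 in REG, and 946, 934 and 1137 in hADMSCs-Exo. Library 1 was the highest in LFG and REG, and library 3 in hADMSCs-Exo. The 5 markers of plasmacytoid dendritic cells, which make much type I interferon, summed to 190, 45.0 and 14.0 in LFG, 25.6, 18.0 and 14.3 in REG, and 34.3, 15.8 and 23.1 in hADMSCs-Exo, with library 1 the highest in each group. Nearly all of these reads were of Ly6d and Tcf4, which other cells also express. The more restricted Siglech had 21, 12 and 1 reads in LFG, 6, 2 and 1 in REG and 9, 8 and 3 in hADMSCs-Exo, again with library 1 the highest in each group. Ccr9 had 15, 2 and 2 reads in LFG, 11, 10 and 0 in REG and 1, 5 and 6 in hADMSCs-Exo, and Cox6a2 had 3 or fewer in every library and 0 in all 3 of REG. The part of either cell type in the members' levels was not tested. The 7 hepatocyte markers summed to 80237, 133460 and 155866 CPM in LFG, 175433, 167724 and 165888 in REG, and 137723, 138497 and 126205 in hADMSCs-Exo, so that all REG libraries lay above all others, and their part in the comparisons with REG was not tested. LFG 3 stood apart from LFG 1 and LFG 2 in the whole table: its TMM factor was 0.808 against 1.38 and 1.09, it had the lowest total count (13837445, against up to 19840917 in the others), and its 6 stellate cell and fibroblast markers summed to 17.3 CPM against 877 and 521.

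The first comparison, REG against LFG, asked how the genes differ between livers that recovered in PBS and livers at the end of CCl4. The counts were tested by the quasi-likelihood method of edgeR, with p-values adjusted after Benjamini and Hochberg over all genes tested. A gene was called where its adjusted p was under 0.05 and its log2 fold change was 1 or more in size, the limits of the study's methods. By edgeR no member was called, nor was any of the 12517 genes tested (0%). DESeq2 called 0 members and 1.92% of all genes, and limma voom with quality weights called 2, Irf1 (1.06, adjusted p = 0.0228) and Rsad2 (-1.64, adjusted p = 0.0439), and 10.3% of all genes. In the edgeR fit Irf1 alone had an unadjusted p under 0.05, 1 of 9 members against 11.3% of all genes. The log2 fold changes of the 9 members were higher in REG for 4 and lower for 5, with a median of -0.004 against -0.07 over all genes. Without LFG 3 they were higher for 3 and lower for 6, with a median of -0.22, and with library totals in place of TMM the median was -0.32 against -0.27 over all genes.

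Irf1, the antigen presentation factor, had a mean log2 CPM of 5.38 ± 0.44 in REG and 4.54 ± 0.21 in LFG (SD, n = 3). Its log2 fold change was 0.89 (standard error 0.26, 95% interval 0.27 to 1.51), a 1.85-fold higher level, with an unadjusted p of 0.0115 and an adjusted p of 0.354. The groups did not overlap for Irf1, as for 19.0% of all genes, and an exact permutation test gave p = 0.1, the smallest that 3 libraries against 3 allow. On FPKM, scaled by the library totals alone, they did overlap: LFG 1 had 8.74, above the 6.96 of REG 3, and the other REG libraries had 12.4 and 11.2 against 5.34 and 5.09 in LFG 2 and LFG 3. With library totals in place of TMM the log2 fold change of Irf1 was 0.67 (unadjusted p = 0.0719), 0 members had an unadjusted p under 0.05 (11.4% of all genes did), and the median of all genes moved from -0.07 to -0.27. Without LFG 3 it was 0.98 with an adjusted p of 0.0486, below the limit on fold change, in a fit in which 16.8% of all genes reached an adjusted p under 0.05 and 10.7% were called.

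The antiviral enzymes had the most negative values among the members in this comparison. The difference of Rsad2 was -1.15 (standard error 0.83, 95% interval -3.12 to 0.81, adjusted p = 0.618), and that of Oas1a -0.49 (interval -2.18 to 1.21, adjusted p = 0.812). Their LFG libraries 1 and 2 lay above all REG libraries and LFG 3 below them. Without LFG 3 the fold change of Rsad2 was -1.63 (interval -2.84 to -0.42, adjusted p = 0.0662) and that of Oas1a -0.97 (interval -1.63 to -0.31, adjusted p = 0.0539), where 37.3% of all genes had an unadjusted p under 0.05. Without LFG 1, the LFG library with the highest level of both, the fold changes were -0.29 for Rsad2 (adjusted p = 0.943) and 0.084 for Oas1a (adjusted p = 0.984), so that size and sign moved with single LFG libraries.

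For the other members the interval spanned 0 with and without LFG 3. Gbp2 had 0.79 (standard error 0.73), which became 0.33 without LFG 3, and Ifit3 had 0.57 (standard error 0.69), which became 0.15. Usp18 had -0.24 and Irf7 -0.06, which became -0.45 and -0.41, while Ifit1 had 0.16, which turned to -0.22. The nearest to 0 was Isg15, with -0.004 and a 95% interval of -1.10 to 1.09, which still holds a 2-fold difference in either direction, and it had -0.18 without LFG 3.

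The second comparison, hADMSCs-Exo against LFG, shares the LFG libraries with the first. By edgeR no member was called, nor was any of the 12489 genes (0%). Voom called 0 members and 1 of the 12489 genes, and DESeq2 called 0 members and 0.480% of all genes. Again 1 of 9 members, Irf1, had an unadjusted p under 0.05, against 5.98% of all genes. The median of the members was 0.14 against -0.06 over all genes, and it was -0.20 without LFG 3 and -0.083 with library totals.

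Irf1 had a mean log2 CPM of 5.26 ± 0.31 in hADMSCs-Exo against 4.54 ± 0.21 in LFG (SD, n = 3), a log2 fold change of 0.73 (standard error 0.23, 95% interval 0.19 to 1.26, unadjusted p = 0.0149, adjusted p = 0.805). The 2 groups did not overlap, as for 12.3% of all genes, but on FPKM LFG 1, with 8.74, lay above hADMSCs-Exo 3, with 7.17, and with library totals in place of TMM the fold change was 0.60 (unadjusted p = 0.0938), so that 0 members were under 0.05 against 5.39% of all genes. The median of all genes moved there from -0.06 to -0.18. Without LFG 3 the fold change was 0.80 with an adjusted p of 0.0794, in a fit that called 5.97% of all genes and gave 28.5% an unadjusted p under 0.05. Leaving out LFG 2 or hADMSCs-Exo 2 raised the unadjusted p of Irf1 above 0.05, which left 0 members under it.

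The remaining members had wide intervals. Ifit1 had 0.84 (interval -1.13 to 2.80), Gbp2 0.78 (interval -0.80 to 2.36) and Ifit3 0.65 (interval -1.24 to 2.54). Oas1a had -0.29, Rsad2 -0.25, Usp18 -0.03, Isg15 -0.03 and Irf7 0.14. Without LFG 3 all 8 had lower values: Ifit1 had 0.46, Gbp2 0.33, Ifit3 0.23, Oas1a -0.76, Rsad2 -0.71, Usp18 -0.25, Isg15 -0.20 and Irf7, which changed sign, -0.20, and each interval still spanned 0. Without hADMSCs-Exo 1, the library with the highest levels of Ifit1 and Ifit3, their fold changes were -0.48 and -0.42.

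The third comparison, hADMSCs-Exo against REG, set exosomes against PBS over the same recovery time. It holds no LFG library. By edgeR no member was called, against 0.00811% of the 12337 genes tested, and DESeq2 called 0 members and 0.543% of all genes. No member had an unadjusted p under 0.05, where 10.0% of all genes did, and all 9 overlapped between groups, where 15.5% of all genes did not. The median log2 fold change of the members was 0.22 against 0.01 over all genes.

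Rsad2, the viperin gene, had the largest difference among the 9 members in this comparison, with a mean log2 CPM of 4.08 ± 0.81 in hADMSCs-Exo and 3.08 ± 0.92 in REG (SD, n = 3). Its log2 fold change was 0.94 (standard error 0.54, 95% interval -0.30 to 2.18, adjusted p = 0.586), and REG 1 lay above 2 of the 3 hADMSCs-Exo libraries. It was 0.37 without hADMSCs-Exo 1 and 1.71 without REG 1, the lowest and the highest value with a library left out. Ifit1 followed with 0.70 (interval -0.90 to 2.30), a value set by hADMSCs-Exo 1, since it was -0.64 without that library. Irf1 had -0.15 (interval -0.71 to 0.41), the narrowest interval of the members. Irf7, Isg15, Ifit3, Usp18, Gbp2 and Oas1a lay between -0.003 and 0.23, each with an interval that held both directions.

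**Figure D3:**
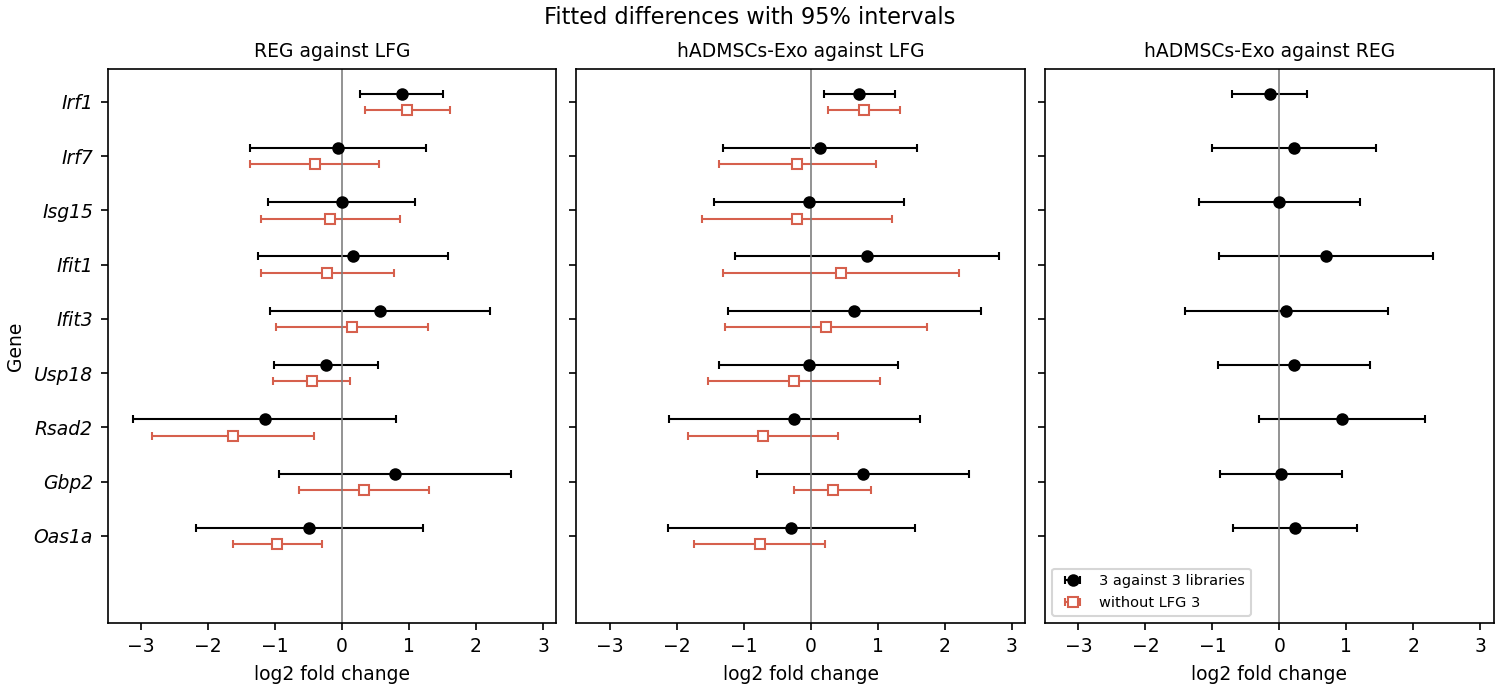
Log2 fold change of each gene (x axis) with its 95% interval from edgeR's quasi-likelihood fit, for REG against LFG, hADMSCs-Exo against LFG and hADMSCs-Exo against REG. Black points use 3 libraries per group, and open red squares leave out LFG 3. The interval of Irf1 lies to the right of 0 in both comparisons with LFG, and that of Rsad2 and Oas1a lies to the left of 0 for REG against LFG when LFG 3 is left out.

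Upstream of the members, the interferon genes themselves were scarcely read. Ifnb1, Ifna1, Ifna2, Ifna4, Ifne, Ifnl2 and Ifnl3, 7 interferon genes in the table, had 0 counts in all 9 libraries, which allows up to 3 counts or 0.151 to 0.217 CPM per library, counting error only. Ifng, the interferon of T and NK cells, had 1, 1 and 0 reads in LFG, 3, 0 and 0 in REG and 6, 6 and 4 in hADMSCs-Exo, too few to pass the filter on low counts. The hADMSCs-Exo libraries had more Ifng reads than the others, and at this depth the gene was not tested.

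The receptor genes were read well. Ifnar1, of the type I receptor, had 332 to 931 counts per library and Ifnar2, its partner, 516 to 812. Of the 5 ligand and receptor genes tested, 0 had an unadjusted p under 0.05 in either comparison with LFG and 1 did for hADMSCs-Exo against REG, the interferon-γ receptor gene Ifngr2 (-0.43, adjusted p = 0.488). The shares of all genes under it were 11.3% and 5.98% for REG and hADMSCs-Exo against LFG, and 10.0% for hADMSCs-Exo against REG. Without LFG 3 the receptor of type III interferon, Ifnlr1, was called lower in REG (log2 fold change -2.68, adjusted p = 0.0349) and in hADMSCs-Exo (-2.79, adjusted p = 0.0457), on 24, 19 and 6 reads in LFG, 3, 4 and 1 in REG and 1, 3 and 3 in hADMSCs-Exo. In those fits 4 of 6 genes tested had an unadjusted p under 0.05 in either comparison, 1 higher and 3 lower, where 37.3% and 28.5% of all genes did. Ifngr1, of the interferon-γ receptor, was among the lower ones, with -0.88 in REG (adjusted p = 0.0322) and -0.86 in hADMSCs-Exo (adjusted p = 0.0281), and Ifnar2 was the higher one, with 0.48 (adjusted p = 0.0809) and 0.45 (adjusted p = 0.165).

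Among the 11 genes of the JAK-STAT relay and its feedback, 0 had an unadjusted p under 0.05 for REG against LFG, 1 for hADMSCs-Exo against LFG and 0 for hADMSCs-Exo against REG. Of all genes, 11.3%, 5.98% and 10.0% did. The 1 gene of the list was Socs1, a feedback inhibitor of the kinases. It had 11, 12 and 7 reads in LFG, 29, 18 and 8 in REG and 32, 33 and 17 in hADMSCs-Exo, a log2 fold change of 1.48 against LFG (unadjusted p = 0.0187, adjusted p = 0.805). Without LFG 3 the list had 0 genes under 0.05 for REG against LFG (37.3% of all genes) and 1 for hADMSCs-Exo against LFG (28.5%), again Socs1. Irf9, the DNA-binding subunit of the type I complex, had a log2 fold change of 0.24 for REG against LFG (adjusted p = 0.625). Stat2, of the same complex, went the other way with -0.24 (adjusted p = 0.656). For both genes the groups did not overlap.

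In the IRF family outside the members, Irf3, the factor that starts interferon transcription, had log2 fold changes of 0.30 for REG against LFG (adjusted p = 0.788) and 0.20 for hADMSCs-Exo against LFG (adjusted p = 0.958). When LFG 3 was left out they were 0.95 (adjusted p = 0.0159) and 0.83 (adjusted p = 0.0382), both short of the limit on fold change.

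Of 15 genes of nucleic acid sensing, 0 had an unadjusted p under 0.05 in the comparisons with LFG, and 1, Tlr9, did for hADMSCs-Exo against REG (log2 fold change 1.46, adjusted p = 0.463, on 21, 24 and 12 against 7, 3 and 12 reads). The shares of all genes under it were 11.3% and 5.98% for REG and hADMSCs-Exo against LFG, and 10.0% for hADMSCs-Exo against REG. Without LFG 3, 2 of the 15 were called in REG, where 10.7% of all genes were, and 1 of 15 in hADMSCs-Exo, where 5.97% were. The endosomal sensor Tlr7 was called lower in REG (-2.17, adjusted p = 0.0154) and in hADMSCs-Exo (-1.84, adjusted p = 0.0237). It had 571, 340 and 9 reads in LFG, so that LFG 3 was the lowest and LFG 1 the highest of the 9 libraries. The other call in REG was Tlr9 (-2.49, adjusted p = 0.0493).

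The list of 40 other genes induced by type I interferon was closest in kind to the members. In REG against LFG 16 were higher and 24 lower, with a median of -0.14, and 2 had an unadjusted p under 0.05, Lgals9 (0.50, adjusted p = 0.430) and Oas2 (-1.53, adjusted p = 0.388). In hADMSCs-Exo against LFG 21 were higher and 19 lower, with a median of 0.02 and 0 under 0.05. In hADMSCs-Exo against REG 29 were higher and 11 lower, with a median of 0.15 and 2 under 0.05, and 0 were called by edgeR in any of the 3. Of all genes, 11.3%, 5.98% and 10.0% had an unadjusted p under 0.05 in the 3 comparisons.

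The balance of this list against LFG moved with LFG 3 and with the scaling. Without LFG 3, 12 were higher and 28 lower in REG than in LFG, with a median of -0.35, and 14 had an unadjusted p under 0.05, 1 higher and 13 lower (19.1% of all genes were lower at that p). In hADMSCs-Exo 12 were likewise higher and 28 lower than in LFG, with a median of -0.26 and 5 under 0.05, all lower (15.7% of all genes). With library totals in place of TMM 6 were higher and 34 lower in REG, with a median of -0.47 against -0.27 over all genes and 1 under 0.05, and 9 higher and 31 lower in hADMSCs-Exo, with a median of -0.21 against -0.18 over all genes and 0 under 0.05.

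Oas2, which like Oas1a makes oligoadenylates, had 1004, 617 and 113 reads in LFG, 203, 152 and 169 in REG and 514, 334 and 234 in hADMSCs-Exo. It was 1.13 log2 units higher in hADMSCs-Exo than in REG (standard error 0.29, unadjusted p = 0.00420, adjusted p = 0.380), and the 2 groups did not overlap. Lgals9, a galectin gene, was 0.71 lower there (unadjusted p = 0.00284, adjusted p = 0.369). Without LFG 3, 4 of the 40 genes of this list were called lower in REG than in LFG, in a fit that called 10.7% of all genes: Oas3 (-2.04), Oas2 (-1.91), Rnf213 (-1.11) and Oas1g (-1.06), with adjusted p of 0.0361, 0.0115, 0.0235 and 0.0374.

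Genes induced mainly by interferon-γ, the guanylate-binding proteins, immunity-related GTPases, immunoproteasome and antigen presentation genes, had mostly positive values against LFG. Of 29 tested, 26 were higher and 3 lower in REG than in LFG, and 28 higher and 1 lower in hADMSCs-Exo than in LFG. Their median log2 fold changes were 0.57 and 0.63, against -0.07 and -0.06 over all genes. An unadjusted p under 0.05 was reached by 8 in REG, all higher (4.62% of all genes were higher at that p), and by 9 in hADMSCs-Exo, all higher (2.30%), and 0 were called by edgeR. With library totals in place of TMM the counts were 19 higher and 10 lower in REG and 26 higher and 3 lower in hADMSCs-Exo, and 3 genes had an unadjusted p under 0.05 in REG (Gbp2b, Psmb10 and Iigp1, with 2.23% of all genes higher at that p) and 2 in hADMSCs-Exo (Gbp2b and Iigp1, with 1.43%). Without LFG 3, 23 were higher and 6 lower in REG, with a median of 0.44 and 9 under 0.05, all higher (18.2% of all genes were higher at that p), and 25 higher and 4 lower in hADMSCs-Exo, with a median of 0.53 and 13 under 0.05, all higher (12.8%). For hADMSCs-Exo against REG, 16 were higher and 13 lower, with a median of 0.006, and 1, Gbp8, had an unadjusted p under 0.05 (0.72 higher, adjusted p = 0.493). Both comparisons with LFG share its 3 libraries.

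Gbp2b, a near copy of Gbp2, had 76, 18 and 28 reads in LFG, 363, 151 and 99 in REG and 131, 260 and 149 in hADMSCs-Exo. Its log2 fold change was 2.43 in REG (standard error 0.68, unadjusted p = 0.00915, adjusted p = 0.335) and 2.27 in hADMSCs-Exo (standard error 0.51, unadjusted p = 0.00301, adjusted p = 0.805), and all LFG libraries lay below the others. Psmb9, a subunit of the immunoproteasome, had a mean log2 CPM of 5.35 ± 0.37 in REG and 4.52 ± 0.20 in LFG (SD, n = 3) and a fold change of 0.86 (adjusted p = 0.333). Igtp, an immunity-related GTPase gene, had 0.89 in hADMSCs-Exo (adjusted p = 0.805). Without LFG 3, Psmb10 (1.08, adjusted p = 0.0188) and Iigp1 (1.12, adjusted p = 0.0487) were called higher in REG, 2 of the 29 genes tested against 10.7% of all genes, and Gbp2b in hADMSCs-Exo (2.36, adjusted p = 0.0436), 1 of 29 against 5.97%.

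Beside these genes, summed CPM of 13 T and NK cell markers was 26.1, 43.7 and 5.72 in LFG, 60.5, 45.4 and 29.1 in REG, and 60.2, 58.9 and 59.2 in hADMSCs-Exo. The 4 B cell markers summed to 2.77 to 3.63 in LFG, 3.40 to 9.18 in REG and 7.25 to 8.26 in hADMSCs-Exo, and the 5 neutrophil markers to 7.07 to 11.7, 6.48 to 42.7 and 22.6 to 41.1. For all 3 lists every hADMSCs-Exo library lay above every LFG library, and REG overlapped LFG. The part of these cells in the levels of Irf1 or of the interferon-γ list was not tested.

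**Figure D4:**
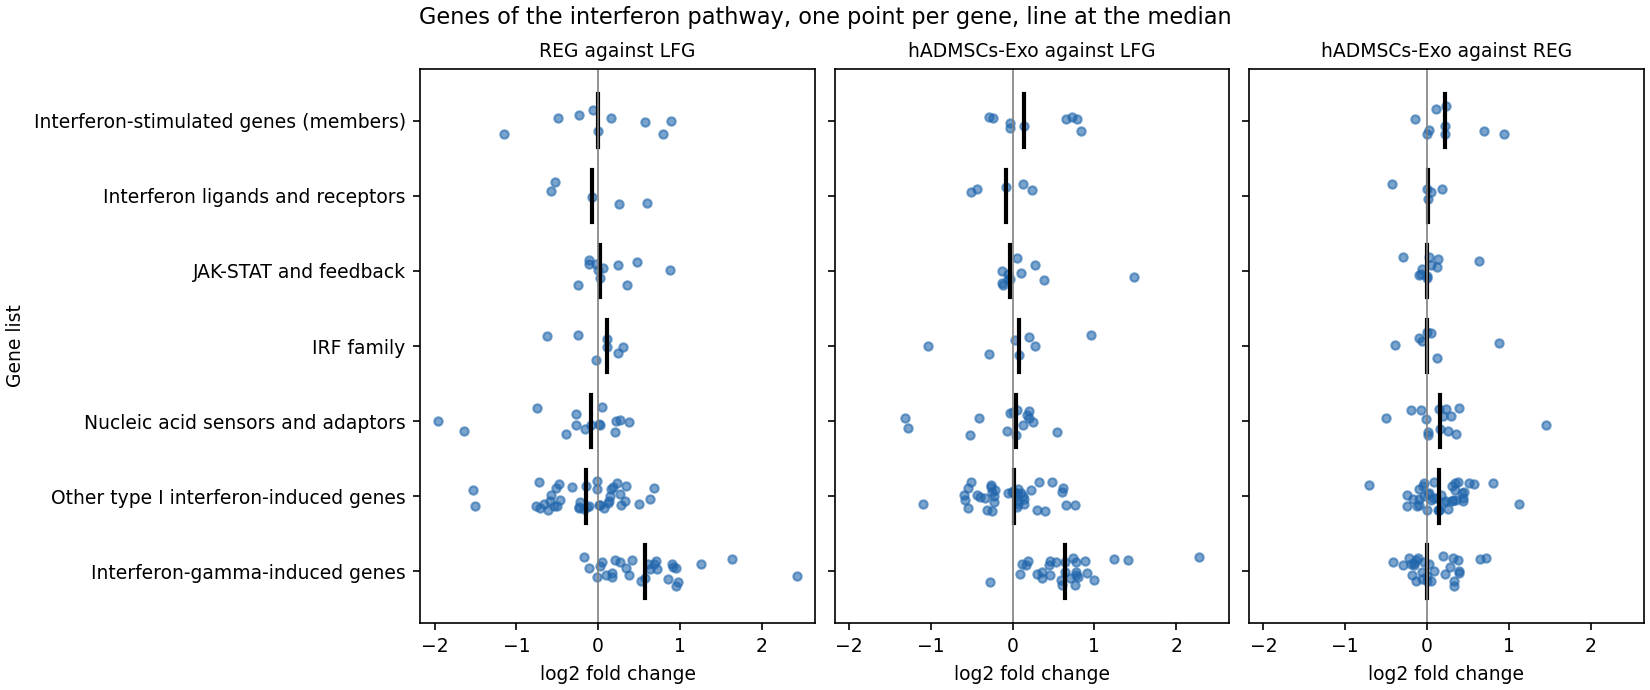
Log2 fold change (x axis) of every tested gene of the 9 members and of 6 lists of the interferon pathway, 1 blue point per gene, with the median as a black line, in the 3 comparisons. The list of genes induced by interferon-γ has its median at 0.57 and 0.63 against LFG and at 0.006 for hADMSCs-Exo against REG, and the members' medians are -0.004, 0.14 and 0.22.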

How the data were processed

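RNA of mouse liver was sequenced by the authors from NEBNext Ultra libraries. The submitters' processing notes name GRCm38, cutadapt 1.15, HISAT2 2.0.5, HTSeq 0.9.1 and DESeq 1.30.0 without their roles. The authors deposited raw counts per gene for 9 libraries (13837445 to 19840917 counts), and FPKM, recomputed from those counts, gene lengths and totals within a relative 9.19e-07. The columns headed MSC_E were taken as hADMSCs-Exo, the match of their name to the labels.

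Counts were tested with edgeR 4.0.16 (R 4.3.3), two-sided, with TMM, edgeR's filter on low counts and only the 6 libraries compared, fitted on the whole table with Benjamini-Hochberg adjustment, and the fit was tested on simulated data. Log2 CPM used a prior count of 2 and TMM over 9 libraries. Lists were described by counts and medians. Alternatives were RLE, DESeq2 1.42.0, limma 3.58.1 voom with quality weights, other filters, all 9 libraries in one fit, the replicate block and each library left out. Scaling by library totals was added after the data were seen. All 9 members were named, with, per list, up to 2 genes each way of smallest p among those whose groups do not overlap, and called genes. The members and lists were chosen with earlier results of these data known. Correlations of same-numbered libraries' deviations, the only ground for pairing, were all over 0.1 for hADMSCs-Exo and LFG (0.101, 0.308 and 0.180), but not for REG and LFG (0.415, -0.202 and 0.305) or hADMSCs-Exo and REG (0.159, 0.0094 and 0.034). Some items of the lists are not reported here.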

Additional observations from a re-analysis of the deposited data

How the results depend on the processing

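Of 378 single-gene values of the members under the alternatives, 315 kept their direction and their side of the threshold, 3 reached an adjusted p under 0.05 where the reported value had not (Irf1 and Rsad2 with voom, and Irf1 without LFG 3, the last short of the limit on fold change), and 60 changed sign. Irf1 stayed positive in all settings of REG against LFG (0.67 to 1.14) and of hADMSCs-Exo against LFG (0.57 to 0.88), with adjusted p from 0.0228 to 0.928 and from 0.0794 to 1.00. The spread within groups, a median SD of 1.08 log2 units for the members, limits what 3 libraries a group can show. Voom with quality weights called 2 members for REG against LFG, given above, among 1285 genes, and had 3 members with an unadjusted p under 0.05. DESeq2 called 240, 60 and 67 genes for REG against LFG, hADMSCs-Exo against LFG and hADMSCs-Exo against REG, and no member. For hADMSCs-Exo against LFG, voom and the fit of all 9 libraries called 1 gene each. For hADMSCs-Exo against REG, voom called 3 genes, no filter on low counts 4 and all 9 libraries in one fit 0, and voom had 1 member with an unadjusted p under 0.05. With library totals only, 0 members had an unadjusted p under 0.05 in either comparison with LFG. The replicate block left 0 members called in each comparison and changed no call for hADMSCs-Exo and LFG. For hADMSCs-Exo against REG the labels do not say whether the numbers pair the libraries. There the block gave 1 member with an unadjusted p under 0.05, Rsad2 (0.996, unadjusted p = 0.0015, adjusted p = 0.281). Each member's standard error was smaller with the block, from 0.53 to 0.15 for Irf7, 0.66 to 0.17 for Ifit3, 0.54 to 0.21 for Rsad2 and 0.40 to 0.33 for Gbp2. When single libraries were left out, the genes called ran from 0 to 1391 (REG against LFG), 0 to 773 (hADMSCs-Exo against LFG), both highest without LFG 3, and 0 to 1 (hADMSCs-Exo against REG, 0 without REG 2 or without hADMSCs-Exo 3). Members with an unadjusted p under 0.05 ran from 1 to 3 (highest without LFG 3), 0 to 1 and 0 to 1 (1 without REG 1 or hADMSCs-Exo 1). For REG against LFG, Isg15 became 0.00021 with RLE, 0.0017 with DESeq2, 0.099 with voom, 0.030 without a filter and 0.023 with the replicate block, and Ifit1 became -0.18 with voom and -0.20 with library totals. For hADMSCs-Exo against LFG, voom gave -0.43 for Irf7 and -0.059 for Ifit3, library totals gave -0.083 for Irf7, and the block gave 0.12 for Rsad2 and 0.050 for Oas1a. For hADMSCs-Exo against REG, Isg15 became 0.0067 with all libraries in one fit and 0.077 with library totals, Ifit3 became -0.082 with voom and -0.054 with the block, and Usp18 -0.018 with voom and -0.0087 with the block. The cause was not tested. With a library left out, log2 fold changes for REG against LFG ran from -0.64 to 0.27 for Irf7, -0.43 to 0.54 for Isg15, -0.38 to 0.75 for Ifit1, -0.12 to 1.13 for Ifit3, -0.48 to 0.014 for Usp18, -1.88 to -0.29 for Rsad2, 0.24 to 1.14 for Gbp2 and -0.97 to 0.084 for Oas1a. For hADMSCs-Exo against LFG they ran from -0.61 to 0.47 for Irf7, -0.80 to 0.53 for Isg15, -0.48 to 1.43 for Ifit1, -0.42 to 1.22 for Ifit3, -0.89 to 0.32 for Usp18, -0.79 to 0.62 for Rsad2, 0.33 to 1.14 for Gbp2 and -0.86 to 0.29 for Oas1a. For hADMSCs-Exo against REG they ran from -0.36 to 0.012 for Irf1, -0.55 to 0.85 for Irf7, -0.81 to 0.47 for Isg15, -0.64 to 1.29 for Ifit1, -0.99 to 0.84 for Ifit3, -0.66 to 0.57 for Usp18, 0.37 to 1.71 for Rsad2, -0.27 to 0.62 for Gbp2 and -0.37 to 0.56 for Oas1a.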
